A study of Danio rerio with 9 samples.

Results

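Genes of fatty-acid uptake, activation and mitochondrial beta-oxidation were followed through regeneration of the zebrafish (Danio rerio) heart valve. A gene belonged to the group when its symbol in the deposited table equalled a name in a list of 40. Of those names 39 matched, giving 40 rows among 21692 genes, because slc27a1b is carried by 2 identifiers. A filter on low values, at least 10 in at least 3 libraries, kept 39 of the 40 rows. The row left out was an identifier of slc27a1b (ENSDARG00000038352), which reached at most 27 in any library. The unmatched name was hadhb, the beta subunit of the mitochondrial trifunctional protein. A row spelled HADHB in capitals (ENSDARG00000102055) was kept out of all member counts and is described beside the alpha subunits.

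Fatty acids reach heart cells from circulating lipoproteins, which lipoprotein lipase digests, and enter through transporters and binding proteins. Acyl-CoA synthetases then join them to coenzyme A, and the carnitine shuttle carries the acyl chain across the inner mitochondrial membrane. In the matrix, repeated cycles of dehydrogenation, hydration, oxidation and thiolysis release acetyl-CoA. The Ppar receptors and their coactivator Pgc-1alpha (ppargc1a) are known in mammals to drive transcription of this pathway. Pyruvate dehydrogenase kinases switch off the enzyme that makes acetyl-CoA from pyruvate, and so set fat against carbohydrate as fuel. Working heart muscle is known for its heavy use of fatty acids.

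The tissue was the atrioventricular region of hearts cut out of cryosections with a laser, and it contains both valve and neighbouring cells. The 3 groups were uninjured fish, fish 48 h after valve cells were ablated and fish 21 d after ablation, with 3 libraries each. Each library came from 2 hearts. Ablated fish had spent 6 h in 2.5 mM metronidazole, a prodrug made toxic by a bacterial nitroreductase expressed in the target cells. The labels name neither the transgenic line and its promoter nor strain, age or sex, and they do not say whether uninjured fish were bathed in the drug. Nor do they state that the libraries within a group are from different fish, so a p-value reflects only how these libraries spread, and that spread may be technical.

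Values are read counts that the authors divided by a size factor and rounded. Column totals ran from 15383031 to 21616553, and the estimated depth of a library was 13.7 to 24.0 when counted in units of 1e6 reads. Both ends of the depth range are uncertain. They came from 48 h library 1 and uninjured library 1, where the estimate fitted worst (correlation 0.208 and 0.159). Several members are duplicated pairs, and how the counting shared reads between near-identical copies is not given in the sources used here. Spearman correlations across genes within a group lay between 0.896 and 0.925. Markers of valve interstitial cells and fibroblasts, of endothelium and of heart muscle were all present in uninjured tissue, with summed values of 188196 to 232435, 22683 to 29564 and 870138 to 1007215. The captured area therefore held heart muscle beside valve. Of 8 adipocyte markers found in the table, between 2 and 5 were listed at 0 in each library.

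At 48 h, 29 of the 39 tested fatty-acid genes had negative log2 fold changes against uninjured tissue. The muscle-type carnitine palmitoyltransferase cpt1b, the synthetases acsl1a and acsl4a, the coactivator ppargc1a and the kinases pdk2a and pdk2b fell, with log2 fold changes of -1.42 to -2.23. Of the 39 members tested, 10 fell (25.6%), against 6.33% of the 17891 genes tested. In the carnitine system 1 member, cratb, rose, which is 2.56% of members against 4.44% of all genes. At an unadjusted p under 0.05 by limma, 2 members were higher and 15 lower, and of all 17891 genes 1944 were higher and 2198 lower. List counts at 48 h given below are read beside these all-gene figures. The median log2 fold change of members was -0.45, or -0.42 without cd36, against 0.01 for all genes. When libraries were scaled to heart-muscle genes these medians were 0.37 for members and 0.80 for all genes. All calls used limma with Benjamini-Hochberg adjustment over all tested genes and a threshold of 0.05, and every fold change below is on the log2(value + 1) scale. When each of the 6 libraries of this comparison was left out in turn, 6 of the 11 calls held every time, those of cpt1b, acsl1a, acsl4a, ppargc1a, pdk2a and pdk2b. With no mean-variance trend in the variance model, the calls of cpt1ab (adjusted p = 0.132), cratb (0.203), acat1 (0.194), lpl (0.175), pparab (0.151) and pdk2b (0.103) were lost.

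**Figure D1:**
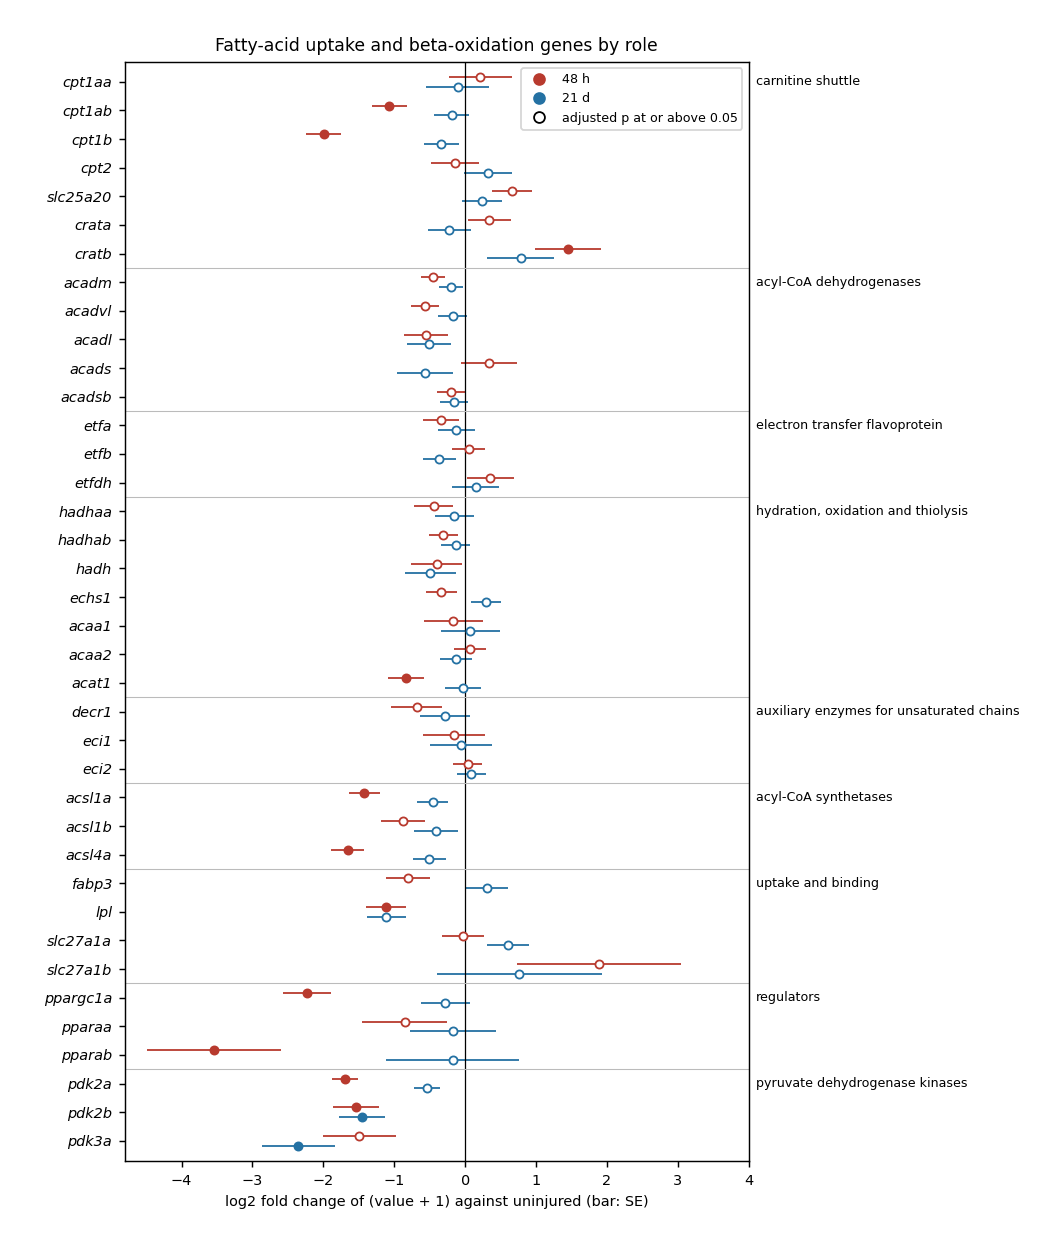
Log2 fold change of (value + 1) against uninjured tissue (x axis; bars, SE) for tested members by role at 48 h (red) and 21 d (blue); filled points had an adjusted p under 0.05. The filled red points lie mostly left of 0, in the carnitine shuttle, synthetase, regulator and kinase rows and in those of lpl and acat1. Most matrix enzymes have open points, and most of their red points also lie left of 0. Their median at 48 h was -0.46 for dehydrogenases, -0.34 for hydration, oxidation and thiolysis, -0.16 for auxiliary enzymes and 0.05 for the flavoprotein. The member cd36 is left out because it was listed at 0 in all 48 h libraries.

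In the carnitine shuttle, carnitine palmitoyltransferase 1 on the outer membrane makes acylcarnitine and is the classical control point of the pathway. The muscle-type gene cpt1b had values of 1737, 1554 and 1486 in the uninjured libraries, 471, 418 and 319 at 48 h, and 1098, 1627 and 1116 at 21 d. All 48 h libraries lay below all others. It fell 3.99-fold at 48 h (log2 fold change -2.00 with SE 0.249, adjusted p = 5.1e-06). The liver-type gene cpt1ab had values of 1900, 3220 and 1681 before injury, 1271, 789 and 1112 at 48 h, and 2054, 1745 and 1931 at 21 d. Again the 48 h libraries were the lowest of the 9, and cpt1ab fell 2.10-fold (log2 fold change -1.07 with SE 0.246, adjusted p = 0.00506). That call did not hold without uninjured library 2, the highest (adjusted p = 0.0597). Its duplicate cpt1aa spread widely, with 286, 330 and 236 before injury, 650, 161 and 333 at 48 h, and 405, 205 and 214 at 21 d. Those groups overlapped, and cpt1aa did not pass the test (log2 fold change 0.22, 95% interval -0.70 to 1.13, adjusted p = 0.829).

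The later steps of the shuttle did not show the values of cpt1b. The inner-membrane enzyme cpt2, which turns acylcarnitine back into acyl-CoA, had values of 349, 799 and 845 before injury and 753, 639 and 361 at 48 h, and the groups overlapped. It was the least changed gene of this role at 48 h (log2 fold change -0.15, 95% interval -0.84 to 0.55, adjusted p = 0.850). The carnitine-acylcarnitine carrier slc25a20 had values of 384, 594 and 480 before injury, 894, 758 and 641 at 48 h, and 508, 549 and 640 at 21 d. All 48 h libraries lay above all others, but the difference did not pass the test (log2 fold change 0.66 with SE 0.279, adjusted p = 0.143). It passed when column totals were made equal (adjusted p = 0.0301).

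Carnitine acetyltransferase, which buffers acetyl groups as acetylcarnitine, is encoded by crata and cratb. The gene cratb had values of 333, 62 and 132 before injury, 397, 381 and 373 at 48 h, and 250, 244 and 232 at 21 d. Highest were the 48 h libraries, and uninjured library 1 stood close to them. It rose 2.73-fold at 48 h (log2 fold change 1.45 with SE 0.470, adjusted p = 0.0490), just under the threshold. The call did not hold without uninjured library 2 (log2 fold change 0.87, adjusted p = 0.258) or 3 (adjusted p = 0.115) and without 48 h library 1, 2 or 3 (adjusted p = 0.104, 0.105 and 0.109), while without uninjured library 1 the log2 fold change was 2.07 (adjusted p = 0.00444). It was also lost with quantile normalization (adjusted p = 0.0607), without the robust step (adjusted p = 0.0692) and with only these 2 groups in the fit (adjusted p = 0.0826). Its duplicate crata had values of 585, 670 and 663 before injury, 829, 874 and 725 at 48 h, and 641, 315 and 809 at 21 d. The 48 h libraries lay above the uninjured ones without passing the test (log2 fold change 0.34 with SE 0.305, adjusted p = 0.562).

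Long-chain acyl-CoA synthetases trap fatty acids in the cell by activation. The 3 synthetase members had lower values at 48 h, and 2 of them fell (66.7%, against 6.33% of all genes). The gene acsl1a, whose mammalian counterpart is the main heart form, had values of 1866, 1981 and 2296 before injury, 888, 641 and 776 at 48 h, and 1528, 1565 and 1370 at 21 d. The 3 groups did not overlap, with the 48 h libraries lowest and the 21 d libraries between. It fell 2.68-fold at 48 h (log2 fold change -1.42 with SE 0.218, adjusted p = 7.5e-05). The duplicate acsl1b had values of 5022, 8020 and 4560 before injury, 3601, 4399 and 1868 at 48 h, and 5430, 3403 and 4168 at 21 d. Its 48 h libraries lay below the uninjured ones, with a wider spread than for acsl1a, and it did not pass (log2 fold change -0.88 with SE 0.310, adjusted p = 0.0972). It passed without 48 h library 2 (adjusted p = 0.0261) and with the replicate number as a block (adjusted p = 0.0357). The third member, acsl4a, belongs to a class that prefers arachidonate in mammals. Its values were 2108, 2704 and 1694 before injury, 675, 750 and 607 at 48 h, and 1786, 1219 and 1549 at 21 d. Every 48 h library was lower than the lowest of the other 6, and acsl4a fell 3.15-fold (log2 fold change -1.66 with SE 0.234, adjusted p = 2.9e-05).

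**Figure D2:**
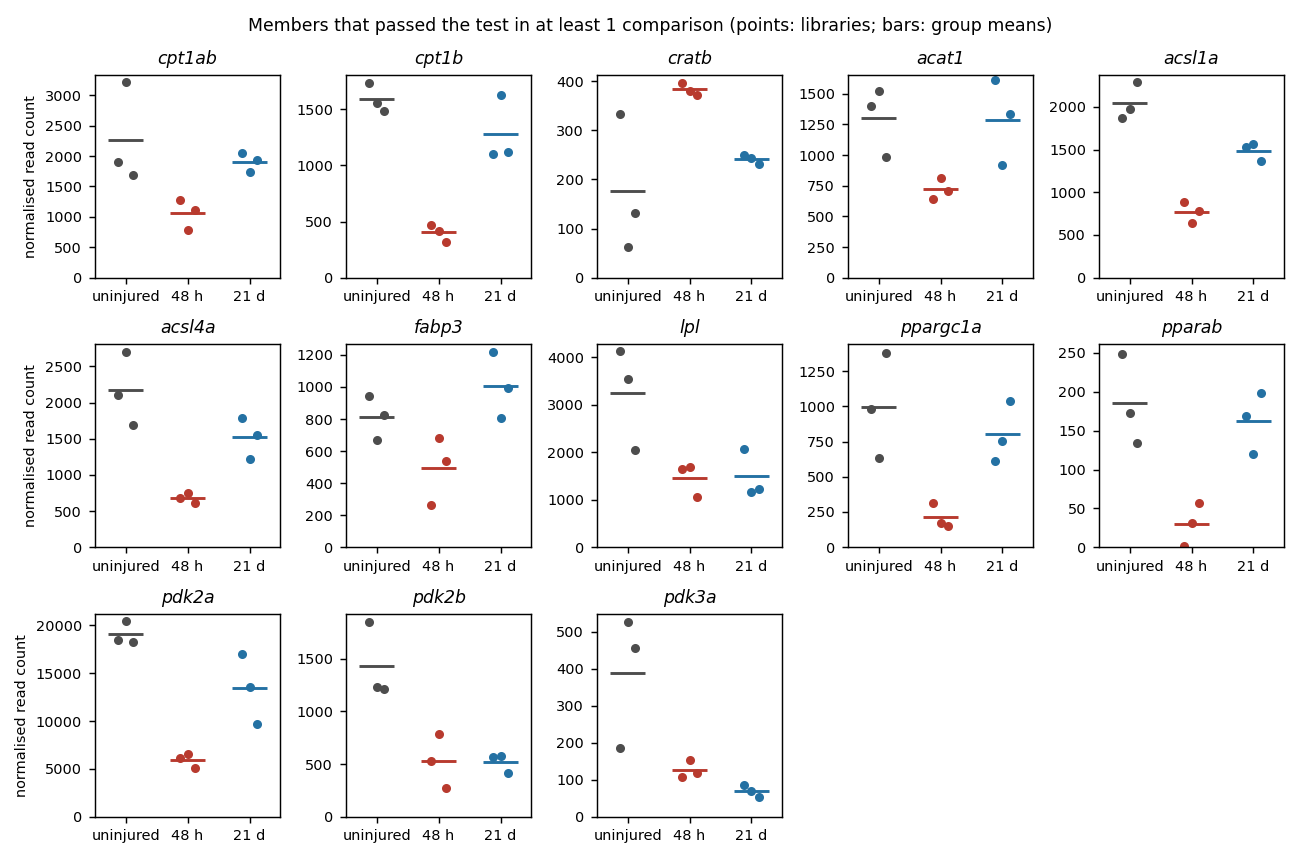
Normalised read count (y axis, from 0) in each library (points) and group mean (bars) for the 13 members that passed the test in at least 1 comparison. The 48 h libraries of cpt1b, acsl1a, acsl4a, ppargc1a, pparab and pdk2a lie below all other libraries, whereas lpl and pdk2b have 48 h and 21 d libraries at like levels, and pdk3a is lowest at 21 d.

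Among genes of uptake and binding, 1 of 5 fell at 48 h (20%, against 6.33% of all genes). Lipoprotein lipase (lpl), which frees fatty acids from triglyceride at the vessel wall, had values of 4125, 3552 and 2050 before injury, 1656, 1686 and 1048 at 48 h, and 2078, 1170 and 1226 at 21 d. The 48 h libraries lay below all uninjured ones, and at 21 d only library 1 reached the lowest uninjured value. It fell 2.17-fold at 48 h (log2 fold change -1.12 with SE 0.280, adjusted p = 0.0120). The call did not hold without uninjured library 1 (adjusted p = 0.0688) or 2 (adjusted p = 0.0596) and without 48 h library 3 (adjusted p = 0.0626). At 21 d the difference was of like size but did not pass (log2 fold change -1.11, adjusted p = 0.0528). It passed without uninjured library 3 (adjusted p = 0.0150) or 21 d library 1 (adjusted p = 0.0232), and also, among other settings, with scaling to heart-muscle genes (adjusted p = 0.0217) and with equal column totals (adjusted p = 0.0460).

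The heart-type fatty-acid binding protein fabp3, a carrier in the cytosol, had values of 945, 668 and 828 before injury, 266, 680 and 537 at 48 h, and 1220, 808 and 993 at 21 d. Library 2 of the 48 h group reached into the uninjured range, and the difference did not pass (log2 fold change -0.81 with SE 0.310, adjusted p = 0.102). Without that library it passed (adjusted p = 0.0363). The fatty-acid transporter gene cd36 was near 0 throughout, with 0, 4 and 10 before injury, 0 in all 48 h libraries, and 0, 27 and 43 at 21 d. Differences in cd36 were not detectable at this depth. The transport protein slc27a1a had values of 733, 450 and 715 before injury, 510, 510 and 853 at 48 h, and 856, 1317 and 739 at 21 d. It was the least changed of this role at 48 h (log2 fold change -0.03, 95% interval -0.65 to 0.59, adjusted p = 0.971). The tested identifier of its duplicate slc27a1b (ENSDARG00000104949) ranged from 3 to 89 before injury and from 59 to 94 at 48 h, and did not pass (adjusted p = 0.354).

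Most enzymes of the matrix spiral did not pass the test at 48 h. Acyl-CoA dehydrogenases carry out the first oxidation, each for a range of chain lengths, and 0 of the 5 were called by limma. At an unadjusted p under 0.05, 2 of them were lower and 0 higher, acadm and acadvl. The medium-chain enzyme acadm had values of 6207, 5690 and 5360 before injury, 4067, 4416 and 4071 at 48 h, and 5559, 4808 and 4654 at 21 d. The very-long-chain enzyme acadvl had values of 11731, 9984 and 9268 before injury, 7288, 7600 and 6051 at 48 h, and 10674, 6047 and 11667 at 21 d. In both genes every 48 h library lay below every uninjured library. The differences were small, with log2 fold changes of -0.46 for acadm (SE 0.167, adjusted p = 0.0835) and -0.57 for acadvl (SE 0.203, adjusted p = 0.0795). With only these 2 groups in the fit acadvl passed (adjusted p = 0.043). The other 3 overlapped between groups at 48 h, with log2 fold changes of -0.55 for acadl, 0.34 for acads and -0.21 for acadsb, the least changed of the role.

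The electron transfer flavoprotein hands electrons from these dehydrogenases to its oxidoreductase in the membrane and on to ubiquinone. Its subunits etfa and etfb and the oxidoreductase etfdh gave log2 fold changes at 48 h of -0.34, 0.05 and 0.35, and 0 of the 3 passed, also at an unadjusted p under 0.05.

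In the remaining steps of the spiral, 1 of 7 members fell at 48 h (14.3%, against 6.33% of all genes). This was acat1, which in mammals makes and cleaves acetoacetyl-CoA and also serves ketone-body and isoleucine breakdown. Its values were 1402, 1524 and 987 before injury, 642, 810 and 710 at 48 h, and 1609, 916 and 1334 at 21 d. Lowest of the 9 were the 48 h libraries, and acat1 fell 1.79-fold (log2 fold change -0.84 with SE 0.255, adjusted p = 0.0346). The call did not hold without uninjured library 1 (adjusted p = 0.114) or 2 (adjusted p = 0.145), without 48 h library 1 (adjusted p = 0.0913) or 3 (adjusted p = 0.0788), with equal column totals (adjusted p = 0.169) and with quantile normalization (adjusted p = 0.0651). The alpha subunits of the trifunctional protein, which hydrates and oxidises long chains, are hadhaa and hadhab. The first ran from 1254 to 2681 before injury and from 907 to 1789 at 48 h, and the second from 1606 to 2375 and from 1476 to 1771. Neither passed, with log2 fold changes of -0.45 and -0.31. The row HADHB had values of 3583, 3975 and 2717 before injury, 2272, 4066 and 2480 at 48 h, and 3627, 2915 and 3216 at 21 d. The groups of HADHB overlapped and it did not pass in any of the 3 comparisons (48 h log2 fold change -0.25 with SE 0.218, adjusted p = 0.541). The short-chain hydratase echs1, the short-chain dehydrogenase hadh and the peroxisomal thiolase acaa1 had log2 fold changes of -0.34, -0.40 and -0.17. The mitochondrial thiolase acaa2 was the least changed of the role at 0.07.

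Unsaturated chains need auxiliary enzymes, the dienoyl-CoA reductase decr1 and the enoyl-CoA isomerases eci1 and eci2. At 48 h 0 of these 3 passed, also at an unadjusted p under 0.05. The reductase decr1 had the most negative log2 fold change of the role, -0.68 (SE 0.358, adjusted p = 0.259). The isomerase eci2 had values of 1281, 1404 and 1402 before injury and 1549, 1283 and 1361 at 48 h, and its log2 fold change was 0.03 (95% interval -0.40 to 0.46).

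Among the regulators, 2 of 3 fell at 48 h (66.7%, against 6.33% of all genes). The coactivator gene ppargc1a had values of 984, 630 and 1380 before injury, 311, 171 and 154 at 48 h, and 611, 757 and 1034 at 21 d. All 48 h libraries lay below all others. It fell 4.69-fold (log2 fold change -2.23 with SE 0.341, adjusted p = 7.3e-05). The receptor gene pparab, a zebrafish Ppar alpha, had values of 249, 173 and 134 before injury, 1, 31 and 57 at 48 h, and 169, 120 and 198 at 21 d. Again, no 48 h library overlapped the rest, and 48 h library 1 held a value of 1. It fell 11.7-fold (log2 fold change -3.54 with SE 0.939, adjusted p = 0.0162), and without that library the log2 fold change was -2.07 (adjusted p = 0.0309). Without 48 h library 3 it was -4.50 (adjusted p = 0.00349). The call did not hold without uninjured library 1 (adjusted p = 0.0721) or 2 (adjusted p = 0.0546) and when only these 2 groups entered the fit (adjusted p = 0.0526). Its duplicate pparaa had values of 201, 83 and 175 before injury, 40, 100 and 122 at 48 h, and 171, 131 and 91 at 21 d. Those groups overlapped, and pparaa did not pass (log2 fold change -0.85 with SE 0.601, adjusted p = 0.433).

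Pyruvate dehydrogenase kinases phosphorylate and inactivate the pyruvate dehydrogenase complex. The gene pdk2a had values of 18477, 20461 and 18275 before injury, 6111, 6555 and 5111 at 48 h, and 17023, 13550 and 9734 at 21 d. The 3 groups did not overlap. It fell 3.23-fold at 48 h (log2 fold change -1.69 with SE 0.179, adjusted p = 4.4e-07). This gene held 18275 to 20461 of the summed member values of 68611 to 82914 in the uninjured libraries. Its duplicate pdk2b had values of 1850, 1230 and 1216 before injury, 530, 786 and 269 at 48 h, and 565, 580 and 412 at 21 d. All injured libraries lay below all uninjured ones, and those of 48 h and 21 d overlapped. It fell 2.91-fold at 48 h (log2 fold change -1.54 with SE 0.325, adjusted p = 0.00245). The gene pdk3a had values of 185, 525 and 455 before injury, 108, 153 and 118 at 48 h, and 86, 69 and 54 at 21 d. The 3 groups did not overlap, with the 21 d libraries lowest. At 48 h it did not pass (log2 fold change -1.49 with SE 0.514, adjusted p = 0.0646), and it passed without uninjured library 1 (adjusted p = 0.0251). It also passed with quantile normalization (adjusted p = 0.0491), with weights per library (0.0352) and with only these 2 groups in the fit (0.047).

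The kinase members were set beside the other genes of the pyruvate dehydrogenase complex and of pyruvate import. Of 11 tested, 4 fell at 48 h (pdk4, pdk1, mpc2 and pdp1), which is 36.4% against 6.33% of all genes. Of these 11, 0 rose, also at an unadjusted p under 0.05. The median was -0.33 against 0.01 for all genes. The kinase pdk4, a Ppar target in mammals, had values of 4160, 3220 and 3458 before injury, 1619, 1793 and 1254 at 48 h, and 1961, 1737 and 1751 at 21 d. All injured libraries lay below all uninjured ones, with a log2 fold change at 48 h of -1.22 (SE 0.203, adjusted p = 2.0e-04) that was -0.41 with heart-muscle scaling and no longer passed (adjusted p = 0.157). The kinase pdk1, a hypoxia target in mammals, had values of 375, 1242 and 674 before injury, 257, 361 and 175 at 48 h, and 946, 526 and 777 at 21 d. It fell at 48 h (log2 fold change -1.42, adjusted p = 0.0190), and that call did not hold without uninjured library 2 (adjusted p = 0.139) or 3 (adjusted p = 0.0583) and without 48 h library 1 (adjusted p = 0.0550) or 3 (adjusted p = 0.0920), with heart-muscle scaling (adjusted p = 0.260) and without the mean-variance trend (adjusted p = 0.178).

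Most heart-muscle markers were lower at 48 h as well. Of 21 heart-muscle rows, 14 fell at 48 h (66.7%, against 6.33% of all genes) and 0 rose. At an unadjusted p under 0.05, 1 was higher, and the median log2 fold change of these rows was -0.64. Of the 21 rows, 17 had negative and 4 positive log2 fold changes. Mean values of nppb, tnni1b and nppa were 2602.7, 13827 and 17052 before injury and 7122, 18029 and 25199 at 48 h. The second actc1a row had values of 29710, 166 and 165 before injury, 20042, 19182 and 12619 at 48 h, and 416, 330 and 207 at 21 d. In that row uninjured library 1 stood far above the other uninjured libraries. The muscle sum is weighted to abundant rows, such as myh6 with a mean of 176690 before injury and 72800 at 48 h. The summed value of the heart-muscle rows was 870138 to 1007215 before injury, 458407 to 576361 at 48 h and 852953 to 1023232 at 21 d. The summed value of the members was 76859, 82914 and 68611 before injury, 44801, 48476 and 39311 at 48 h, and 69602, 55768 and 59745 at 21 d. In both sums the 48 h libraries lay below all others. As a share of the column total, members held 0.363 to 0.396% before injury, 0.256 to 0.280% at 48 h and 0.286 to 0.358% at 21 d. Without pdk2a these shares were 0.267 to 0.301%, 0.222 to 0.242% and 0.216 to 0.270%, and the 48 h and 21 d libraries overlapped. Valve interstitial and fibroblast markers also fell at 48 h, 9 of 9, from a sum of 188196 to 232435 to one of 75931 to 94461. Macrophage markers rose, 11 of 12, from a sum of 3155 to 4085 to one of 12702 to 18885, and summed to 6064 to 9218 at 21 d. Red-cell markers summed to 755256 to 1743022, then 310326 to 782910, then 1141734 to 1654333, and 2 of 10 fell at 48 h (20%, against 6.33% of all genes). Of 10 endothelial markers 3 rose (30%, against 4.44% of all genes) and 1 fell (10%, against 6.33%). Their sums were 22683 to 29564, 28863 to 47332 and 24396 to 25714 in the same order. Of 6 smooth-muscle markers 2 fell (33.3%, against 6.33% of all genes), with sums of 7519 to 12894, 3529 to 8360 and 3977 to 6834. In bulk tissue, fewer cells of a type and less RNA per cell cannot be told apart. The part of these cell types in the changes of fatty-acid genes was not tested.

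**Figure D3:**
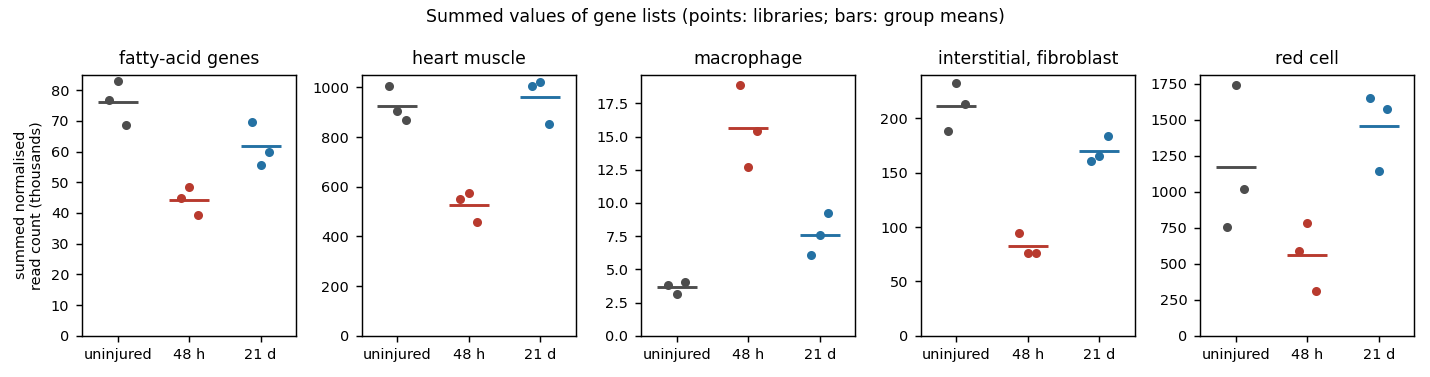
Summed normalised read count divided by 1000 (y axes, from 0) of the fatty-acid genes and of 4 marker lists in each library (points) with group means (bars). The fatty-acid, heart-muscle and interstitial sums were lowest in the 3 libraries of 48 h, and the macrophage sum was highest there.

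The 48 h comparison was therefore also made with each library scaled to its heart-muscle genes. On that scale the median log2 fold change of all genes was 0.80, 25.6% of all genes were called higher and 2.09% lower, so that values are read against this median. Members were called higher in 20.5% and lower in 12.8%. Of the 10 members that had fallen, 5 were still called lower. These were pparab (log2 fold change -2.82, adjusted p = 0.0386), ppargc1a (-1.42, adjusted p = 0.00521), cpt1b (-1.18, adjusted p = 0.00155), pdk2a (-0.88, adjusted p = 1.0e-03) and acsl4a (-0.84, adjusted p = 0.0161). The calls of pdk2b (-0.73, adjusted p = 0.0797), acsl1a (-0.61, adjusted p = 0.0697), lpl (-0.30, adjusted p = 0.403), cpt1ab (-0.25, adjusted p = 0.518) and acat1 (-0.02, adjusted p = 0.961) were lost. The carrier slc25a20 (1.48, adjusted p = 0.00101) and cratb (2.26, adjusted p = 0.00104) were called higher, together with crata, acads, etfb, etfdh, acaa2 and eci2. Across all genes, the deposited scaling gave 794 higher and 1133 lower at 48 h, and equal column totals gave 1345 higher and 652 lower with a median log2 fold change of 0.28.

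**Figure D4:**
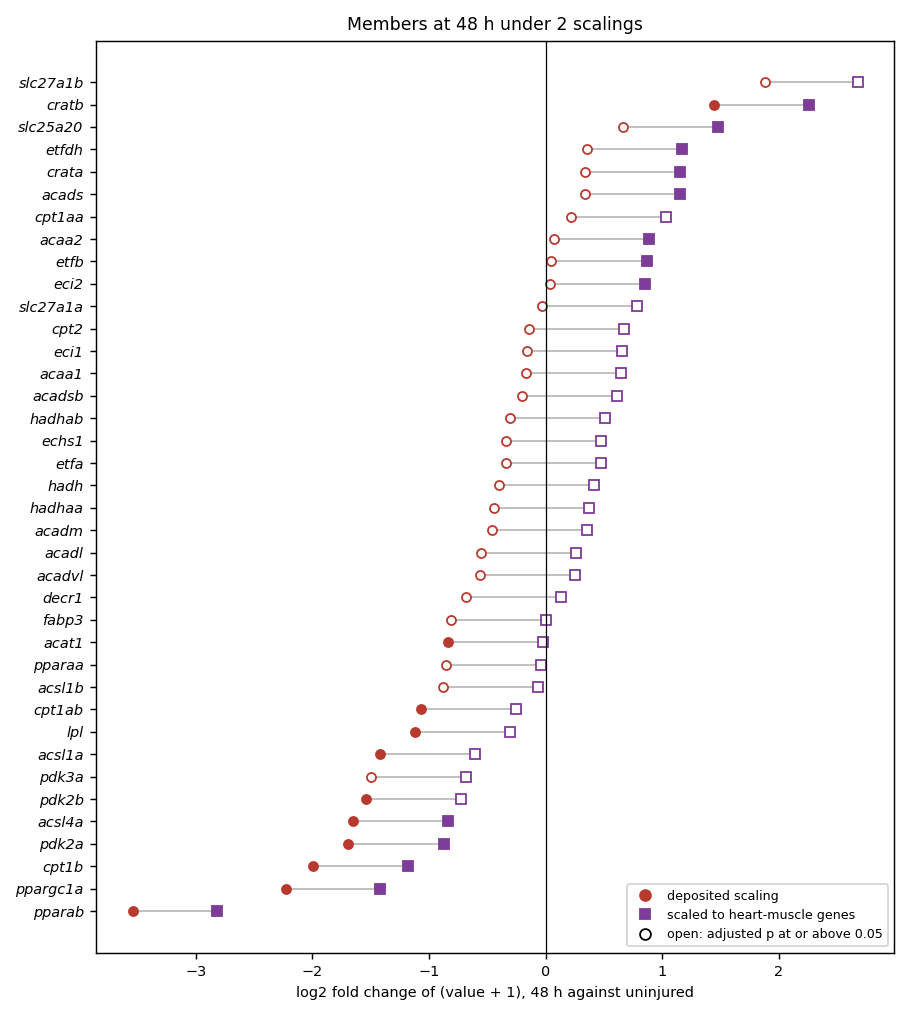
Log2 fold change of (value + 1) at 48 h against uninjured tissue (x axis) for each tested member except cd36, with the deposited scaling (red circles) and after scaling to heart-muscle genes (purple squares); filled marks had an adjusted p under 0.05. Each gene lies further right on the second scale, and pparab, ppargc1a, cpt1b, pdk2a and acsl4a stay filled to the left of 0, while 25 of 39 tested members are above 0 there, where the median of all genes is 0.80.

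By 21 d, 2 of the 39 members differed from uninjured tissue, both kinases and both lower (5.13%, against 0.933% of all genes). None rose by limma, against 0.520% of all genes. At an unadjusted p under 0.05 the members counted 0 higher and 6 lower, and all 17891 genes counted 1004 higher and 1121 lower. The median log2 fold change of members was -0.17, against 0.02 for all genes. The kinase pdk3a, whose values are given above, was 5.11-fold lower (log2 fold change -2.35 with SE 0.514, adjusted p = 0.0176). The kinase pdk2b was 2.73-fold lower (log2 fold change -1.45 with SE 0.325, adjusted p = 0.0218). Neither call held in every leave-out, and both calls were lost without the mean-variance trend (adjusted p = 0.360 for pdk2b and 0.148 for pdk3a). That of pdk2b was lost whichever library was left out (adjusted p = 0.0532 to 0.141), and that of pdk3a without uninjured library 2 (adjusted p = 0.147) or 3 (adjusted p = 0.102) and without 21 d library 2 (adjusted p = 0.0531) or 3 (adjusted p = 0.0769). The kinase pdk4 was also lower at 21 d (log2 fold change -0.99 with SE 0.203, adjusted p = 0.0110), and its call did not hold without uninjured library 1 (adjusted p = 0.0769) without 21 d library 2 (adjusted p = 0.0557) or 3 (adjusted p = 0.0619) and without the mean-variance trend (adjusted p = 0.288). At the same time the heart-muscle markers gave 0 calls in 21 by limma, with 0 higher and 4 lower at an unadjusted p under 0.05. The members cpt1b, ppargc1a, acsl1a and acsl4a, which had fallen at 48 h, had 21 d log2 fold changes against uninjured tissue of -0.34, -0.28, -0.46 and -0.51, and did not pass (adjusted p = 0.646, 0.813, 0.406 and 0.387). The 95% interval for cpt1b was -0.85 to 0.18 and that for ppargc1a was -0.98 to 0.42. The kinase pdk2a had a log2 fold change of -0.54 with all 21 d libraries below all uninjured ones, and did not pass (adjusted p = 0.167).

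Compared with 48 h directly, 9 of 39 members were higher at 21 d (23.1%, against 5.48% of all genes). None was lower by limma, against 4.40% of all genes. At an unadjusted p under 0.05 the members counted 11 higher and 1 lower, and all 17891 genes counted 2101 higher and 1895 lower. This comparison shares its 48 h libraries with the first, and its values are given side by side rather than as separate support. The log2 fold change of 21 d against 48 h was 1.66 for cpt1b (SE 0.249, adjusted p = 7.1e-05) and 1.95 for ppargc1a (SE 0.341, adjusted p = 3.8e-04). For pdk2a it was 1.15 (SE 0.179, adjusted p = 1.1e-04), for acsl4a 1.15 (adjusted p = 0.00181) and for acsl1a 0.96 (adjusted p = 0.00475). Those 5 calls held in all 6 leave-outs, but without the mean-variance trend only that of cpt1b held, and the other 4 had adjusted p of 0.0590 to 0.0850. With equal column totals acsl1a did not pass (adjusted p = 0.0518). The other calls did not hold in every leave-out. The call of pparab (3.37, adjusted p = 0.0236) was lost without 48 h library 1 (log2 fold change 1.89, adjusted p = 0.0505) or 21 d library 1, 2 or 3 (adjusted p = 0.0863, 0.0621 and 0.0939). That of fabp3 (1.11, adjusted p = 0.0224) was lost without 48 h library 1 (adjusted p = 0.122) or 21 d library 1 (adjusted p = 0.121) or 3 (adjusted p = 0.0688). That of cpt1ab (0.88, adjusted p = 0.0229) was lost without 48 h library 2 (adjusted p = 0.126) or 21 d library 1 (adjusted p = 0.0952) or 3 (adjusted p = 0.0730). That of acat1 (0.80, adjusted p = 0.0460) was lost without 48 h library 1, 2 or 3 (adjusted p = 0.108, 0.0569 and 0.101) or 21 d library 1 (adjusted p = 0.223) or 3 (adjusted p = 0.138). By contrast, lpl (0.01, adjusted p = 0.991) and pdk2b (0.09, adjusted p = 0.916) had 21 d values close to those of 48 h. The 95% intervals were -0.58 to 0.59 for lpl and -0.58 to 0.76 for pdk2b. Scaling to heart-muscle genes, with a median log2 fold change of all genes of -0.83 here, gave 2 members higher (5.13%, against 1.7% of all genes) and 13 lower (33.3%, against 27.2% of all genes). On that scale cpt1b and ppargc1a were still called higher, and the calls of pdk2a (adjusted p = 0.247), acsl4a (0.418), acsl1a (0.797), pparab (0.0536), fabp3 (0.606), cpt1ab (0.980) and acat1 (0.893) were lost. Across all genes the deposited scaling gave 980 higher and 788 lower, and equal column totals gave 607 higher and 1281 lower, with 5 members higher. The calls of cpt1ab (adjusted p = 0.119), acat1 (0.183) and fabp3 (0.0835) were lost there as well.

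Ratios between members within a library do not depend on how the library was scaled. Those described here were chosen with the values known and carry no test. The ratio of cpt1b to cpt2 was 4.98, 1.95 and 1.76 before injury, 0.626, 0.654 and 0.884 at 48 h, and 1.31, 2.44 and 1.35 at 21 d, so that the outer-membrane gene was lowest relative to the inner-membrane gene at 48 h. The ratio of pdk2a to acadm was 2.98, 3.60 and 3.41 before injury, 1.50, 1.48 and 1.26 at 48 h, and 3.06, 2.82 and 2.09 at 21 d. In both ratios the 48 h libraries lay below all others. The kinases changed in their proportions at 21 d. The ratio of pdk2a to pdk2b was 9.99, 16.6 and 15.0 before injury, 11.5, 8.34 and 19.0 at 48 h, and 30.1, 23.4 and 23.6 at 21 d. The ratio of pdk3a to pdk2a was 0.0100, 0.0257 and 0.0249 before injury, 0.0177, 0.0233 and 0.0231 at 48 h, and 0.00505, 0.00509 and 0.00555 at 21 d. The 21 d libraries stood apart from the other 6 in both kinase ratios, while the uninjured and 48 h libraries overlapped. Values are not per gene length, so a ratio compares libraries and not the amounts of 2 transcripts.

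**Figure D5:**
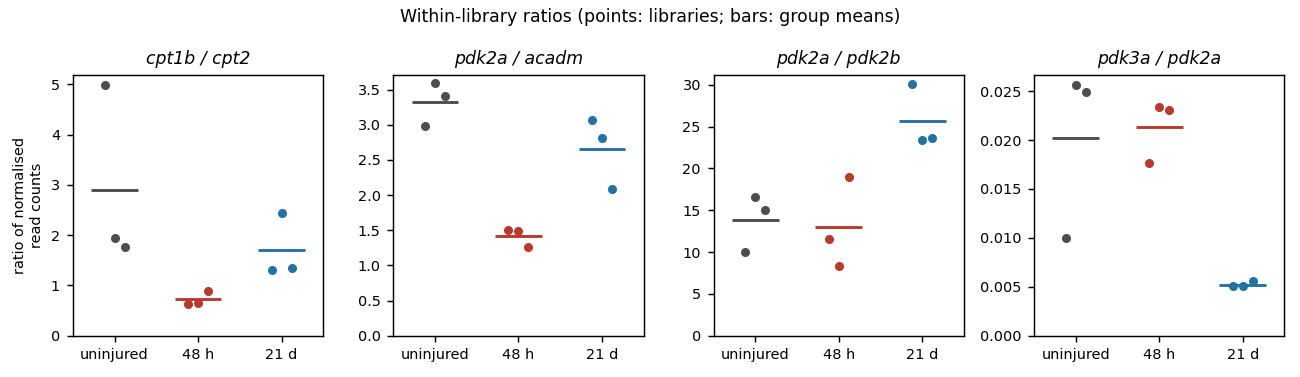
Ratio of normalised read counts of 2 genes within each library (y axes, from 0; points, libraries; bars, group means). The ratios of cpt1b to cpt2 and of pdk2a to acadm are lowest at 48 h (0.626 to 0.884 and 1.26 to 1.50), and the kinase ratios stand apart at 21 d.

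Other lists of fatty-acid and fuel handling were counted beside the members at 48 h. Among 8 tested genes of other uptake, binding and activation, 1 rose and 1 fell, with a median of -0.73. Each is 12.5%, against 4.44% of all genes that rose and 6.33% that fell. The lipase inhibitor angptl4, which restrains lipoprotein lipase and is a Ppar target in mammals, had values of 6275, 11264 and 7668 before injury, 375, 1299 and 827 at 48 h, and 845, 1591 and 1704 at 21 d. All injured libraries lay far below all uninjured ones. It fell at 48 h (log2 fold change -3.46 with SE 0.464, adjusted p = 0.00141) and at 21 d (log2 fold change -2.63 with SE 0.464, adjusted p = 0.0336), where the call did not hold whichever library was left out (adjusted p = 0.0564 to 0.0865), without the mean-variance trend (0.165), with quantile normalization (0.0510) and with no filter (0.0648). The binding protein fabp11a, in zebrafish also found in fat tissue, had values of 1470, 2125 and 1336 before injury, 3389, 4787 and 3531 at 48 h, and 1153, 1418 and 1137 at 21 d. The 48 h libraries lay above all others, and it rose 2.39-fold (log2 fold change 1.26 with SE 0.221, adjusted p = 3.7e-04; 0.0606 without the mean-variance trend). It was also the 1 gene of 4 tested adipocyte markers that rose (25%, against 4.44% of all genes). In mammals its relatives are expressed in macrophages, whose markers rose at the same time, and their part was not tested.

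Of 13 peroxisomal beta-oxidation genes, 1 rose (7.69%, against 4.44% of all genes) and 0 fell (against 6.33%) at 48 h by limma. At an unadjusted p under 0.05, 2 were higher and 3 lower, and the median was -0.11. The gene that rose was the sterol carrier and thiolase gene scp2a, with values of 136, 99 and 83 before injury and 273, 407 and 273 at 48 h (log2 fold change 1.58, adjusted p = 0.0222). Its call did not hold without uninjured library 2 (adjusted p = 0.0547) or 3 (adjusted p = 0.0743) and without 48 h library 2 (adjusted p = 0.102).

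Enzymes of other acyl-CoA substrates, most but not all of them mitochondrial, had a median of -0.42 at 48 h. Of 23 tested, 4 fell (17.4%, against 6.33% of all genes) while 0 rose. At an unadjusted p under 0.05, 1 was higher and 5 lower. The 4 that fell were bckdha, gcdha, ivd and mccc2, which take part in the breakdown of branched-chain amino acids, lysine and leucine. The branched-chain dehydrogenase subunit bckdha had values of 2078, 1467 and 1623 before injury, 682, 970 and 881 at 48 h, and 1818, 1555 and 1795 at 21 d (48 h log2 fold change -1.03, adjusted p = 0.00326). The glutaryl-CoA dehydrogenase gcdha had values of 1487, 1030 and 1132 before injury and 382, 621 and 735 at 48 h. It fell (adjusted p = 0.00834), a call lost without uninjured library 1 (adjusted p = 0.0564) and with equal column totals (adjusted p = 0.0612). Both calls were lost with heart-muscle scaling (adjusted p = 0.551 for bckdha and 0.494 for gcdha) and without the mean-variance trend (0.0811 and 0.125).

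In the citric-acid cycle, which burns the acetyl-CoA made here, 2 of 18 genes fell (11.1%, against 6.33% of all genes) and 0 rose. At an unadjusted p under 0.05, 0 were higher and 9 lower, against 1944 and 2198 of all 17891 genes. The median was -0.40. The oxoglutarate dehydrogenase gene ogdhb had values of 1061, 2749 and 1721 before injury and 956, 1005 and 821 at 48 h. Its log2 fold change was -0.89 (adjusted p = 0.0288), and that call did not hold without uninjured library 2 (log2 fold change -0.55, adjusted p = 0.223) or 3 (adjusted p = 0.0786) and without 48 h library 1, 2 or 3 (adjusted p = 0.0543, 0.0505 and 0.0999). It was also lost under each of the 3 other scalings, without the mean-variance trend and with only these 2 groups in the fit (adjusted p = 0.0558 to 0.872).

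Among other nuclear receptors and cofactors, 2 of 19 fell (10.5%, against 6.33% of all genes) and 0 rose at 48 h (1 higher and 4 lower at an unadjusted p under 0.05), with a median of -0.36. The retinoid X receptor gene rxrbb, whose product pairs with Ppar receptors, had values of 1574, 1302 and 1084 before injury, 313, 374 and 599 at 48 h, and 1156, 734 and 992 at 21 d (48 h log2 fold change -1.66, adjusted p = 2.5e-04). The corepressor gene ncor1 had values of 6590, 6986 and 9766 before injury, 4442, 4073 and 3606 at 48 h, and 7344, 8466 and 6367 at 21 d (48 h log2 fold change -0.93, adjusted p = 0.00119). Both genes had their lowest values in the 48 h libraries. The call of ncor1 was lost with heart-muscle scaling (log2 fold change -0.11, adjusted p = 0.711) and without the mean-variance trend (adjusted p = 0.107).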

How the data were processed

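PolyA RNA of 9 libraries was sequenced from laser-captured tissue, per the labels. Per the submitters' processing notes, the tools were FastQC 0.11.8, Trimmomatic 0.33, STAR 2.6.0c, featureCounts 1.6.0 and DESeq2 1.18.1, with the build GRCz11. The table the authors deposited holds a normalised signal: each read count, scaled by its library's size factor, as a whole number. Size factors read from the spacing of low values ran from 0.851 to 1.398, with the weakest fits in uninjured library 1 and 48 h library 1. Median-of-ratios factors of the table deviated from their mean by at most 0.08%. Whether molecular indexes removed duplicates and whether counting used strand are not given in the sources used here.

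These values are not raw counts, so no count model was fitted. Values were log2-transformed after adding 1, which understates changes of low genes. Genes with at least 10 in at least 3 libraries were tested, 17891 in all, in 1 linear model over the 9 libraries in limma 3.58.1 under R 4.3.3, using empirical Bayes with a trend and the robust option, on 6 residual degrees of freedom. Tests were two-sided, with Benjamini-Hochberg adjustment over all tested genes at 0.05, and were tested on simulated data. Members and lists were chosen with earlier results of these data known. Members past the threshold in any comparison, duplicates of a member that passed, the least and most changed member of each role, and up to 2 genes of each other list with the smallest adjusted p were named. Symbols were matched by exact spelling. A gene that this rule names is left out of the text. Other settings tried were 3 scalings, another pseudocount, no filter, other variance models, weights per library, blocking on replicate number, fits of 2 groups and leave-outs. Equal replicate numbers were not treated as pairs in the main fit. A planned search of promoters and comparison of proteins was not made, and no sequences or coordinates were used here. Figures used Python 3.11.15 and matplotlib 3.10.9.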

Additional observations from a re-analysis of the deposited data

How the results depend on the processing

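At 48 h against uninjured tissue the members gave 1 call higher and 10 lower. These counts became 2 higher with equal column totals, 0 higher with quantile normalization, without the robust step and with only the 2 groups compared, 8 higher and 5 lower with scaling to heart-muscle genes, and 0 higher and 5 lower without the mean-variance trend. Leaving out 1 library gave 0 to 1 higher and 6 to 12 lower. Among all genes the 794 higher and 1133 lower became 1345 and 652 with equal column totals, 4584 and 374 with heart-muscle scaling, 294 and 390 without the trend, and 513 to 667 and 799 to 1122 in leave-outs. At 21 d against uninjured tissue the 2 members called lower became 0 without the trend and 0 to 2 in leave-outs. With lpl added they became 3 with equal column totals, heart-muscle scaling and a pseudocount of 5. The same 3 were called with no filter, a replicate block and only the 2 groups compared. The 93 genes higher and 167 lower became 52 higher with heart-muscle scaling, 11 and 33 without the trend, 146 and 266 with only the 2 groups compared, and 27 to 71 and 69 to 104 in leave-outs. At 21 d against 48 h the 9 members higher and 0 lower became 5 higher with equal column totals, 2 higher and 13 lower with heart-muscle scaling, 1 higher without the trend and 5 to 9 higher in leave-outs. The 980 genes higher and 788 lower became 607 and 1281, 305 and 4871, and 253 and 199 under those settings, and 618 to 1042 and 490 to 633 in leave-outs. Heart-muscle scaling, under which the median of all genes was -0.83 at 21 d against 48 h, turned the sign of 19 members there, 13 of them with no call under either scaling. The 6 with a call on either side, and pdk4, had log2 fold changes on that scale as follows: acadm (-0.61), acadsb (-0.82), hadhab (-0.69), acat1 (-0.061), eci2 (-0.81), lpl (-0.86) and pdk4 (-0.63). The cause of these differences was not tested.

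Of 622 values of single members at 48 h over all alternatives, 535 kept direction and call, 32 lost a call, 16 gained one, 0 turned sign with a call on either side, and 39 turned sign without a call. The same numbers were 580, 12, 8, 0 and 21 of 621 at 21 d, and 525, 37, 11, 6 and 42 of 621 for 21 d against 48 h. A fit with the replicate number as a block gave 1 member higher and 11 lower at 48 h, 0 and 3 at 21 d, and 8 and 0 for 21 d against 48 h, and lpl was lower at 21 d there (adjusted p = 0.0133). Same-numbered libraries did not deviate together (correlations across genes -0.020 to 0.027, against -0.044 to 0.052 for other pairs between groups). No shared deviation by number was therefore seen, but such correlations cannot show whether libraries were handled in pairs. With 3 libraries a group and captured tissue of mixed cells, members at low values such as cd36 and slc27a1b could not be compared at this depth.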

Other observations

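Most listed genes of the opposite pathway, fatty-acid synthesis, also had negative log2 fold changes at 48 h, 10 against 2 positive. Of 12 tested, 5 fell (41.7%, against 6.33% of all genes) and 0 rose. At an unadjusted p under 0.05 by limma, 0 were higher and 7 lower. The median log2 fold change was -1.51, and it gives genes with low values the same weight as abundant ones. Values of scd were 106, 94 and 6 before injury and 23, 0 and 0 at 48 h. Those of scdb were 203, 101 and 174, then 0, 35 and 19. Those of elovl5 were 98, 46 and 138, then 53, 0 and 57. Also low was mid1ip1a, with 0, 23 and 38, then 0, 0 and 5. The 5 that fell were acacb, fads2, srebf1, srebf2 and scdb. The genes fasn and acaca were not among them. Values of fasn overlapped, with 978, 869 and 1500 before injury and 1044, 733 and 571 at 48 h. Those of acaca were 740, 755 and 961 before injury and 505, 346 and 411 at 48 h. The gene acacb encodes the acetyl-CoA carboxylase whose mammalian counterpart makes the malonyl-CoA that restrains carnitine palmitoyltransferase 1. Its values were 6989, 8527 and 6283 before injury, 4325, 2425 and 2752 at 48 h, and 6654, 6823 and 5960 at 21 d. The 48 h libraries lay below all others (log2 fold change -1.23 with SE 0.200, adjusted p = 1.5e-04). It was higher again at 21 d than at 48 h (log2 fold change 1.08, adjusted p = 7.2e-04). Both acacb calls were lost with heart-muscle scaling (48 h log2 fold change -0.42, adjusted p = 0.155; 21 d against 48 h adjusted p = 0.493) and without the mean-variance trend (adjusted p = 0.0672 and 0.105). The desaturase fads2 had values of 79, 310 and 361 before injury, 80, 13 and 15 at 48 h, and 180, 58 and 146 at 21 d. It fell at 48 h (log2 fold change -2.99, adjusted p = 0.0153), and the call did not hold without uninjured library 2 (adjusted p = 0.0926) or 3 (adjusted p = 0.109) and without 48 h library 2 (adjusted p = 0.0516) or 3 (adjusted p = 0.0536), and without the mean-variance trend (adjusted p = 0.126). At 21 d against uninjured tissue, 0 of the 12 were called by limma, with 0 higher and 1 lower at an unadjusted p under 0.05. All 12 log2 fold changes were negative there, with a median of -0.70 against 0.02 for all genes. The low genes carry the same weight in this median too.

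Lipolysis and lipid-droplet genes gave 0 calls in 12 at 48 h, also at an unadjusted p under 0.05, and their median was 0.09. Of 5 genes of ketone-body metabolism 0 were called at 48 h (0 higher and 1 lower at an unadjusted p under 0.05), with a median of -0.53. The estrogen-related receptor gene esrra, named after its values were seen, is a partner of the Pgc-1 coactivators in mammals. Its values were 282, 433 and 467 before injury, 162, 254 and 209 at 48 h, and 476, 722 and 835 at 21 d. The 21 d libraries were the highest of the 9 and those of 48 h the lowest, and it was higher at 21 d than at 48 h (log2 fold change 1.68 with SE 0.346, adjusted p = 0.00198). That call was lost with heart-muscle scaling (adjusted p = 0.105) and without the mean-variance trend (adjusted p = 0.0517). Against uninjured tissue it did not pass at 48 h (-0.91, adjusted p = 0.0997) or at 21 d (0.78, adjusted p = 0.358).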
